A study of Mus musculus with 3 samples.

Results

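The cells described here are mouse bone marrow cells that carried transcripts of the major histocompatibility complex (MHC) class II chains. Among cells with at least 500 unique molecular identifiers (UMIs, which tag single RNA molecules), 300 or more genes and no more than 10% mitochondrial UMIs, those with at least 3 UMIs over H2-Aa, H2-Ab1 and H2-Eb1 were taken. Cells with more than 1 UMI of Siglech, a plasmacytoid dendritic cell gene, were left out. Cells with more than 2 UMIs of Cd79a and Cd79b, the B cell receptor partners, were left out too. The same was done for cells with more than 2 UMIs of the macrophage genes C1qa, C1qb and C1qc, and for cells with 20000 or more UMIs per 1000000 (CPM) of the neutrophil granule genes Camp and Ngp. This left 653 of 26415 kept cells, 2.47%. Of 957 kept cells with at least 3 class II UMIs, 304 were removed by these limits, most of them (238) for Cd79a and Cd79b. The rule therefore chose the cells by their class II level, and class II values below describe them without testing anything.

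The working label for these cells was dendritic cells, and the markers bore that name out for only some of them. Clustering placed 179 of the 653 cells, 27.4%, in clusters that met the markers of conventional dendritic cells. Another 361 cells, 55.3%, were in 6 clusters with a median of 3 or 4 class II UMIs that were led by stem cell, erythroid, basophil, lymphoid or granulocyte progenitor genes. They are called class II-positive cells here.

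The cells came from 3 single-cell libraries of C57BL/6 bone marrow that had been enriched for the receptor Kit, made with 10x Genomics version 2 chemistry for the 3 prime ends of transcripts. The unchallenged library was labelled steady state, the challenged once library followed 1 dose of Escherichia coli and was labelled 24 h, and the library titled for 2 challenges, called rechallenged here, followed 2 doses and was labelled 48 h. No transgene or mutant allele was named for any group. There was 1 library per group, so every difference is between single libraries, no test was possible, and dose number and labelled time differ together. The labels do not say whether animals were pooled or from when the hours count, and they name the source as neutrophils although the enrichment names Kit. The members do not bear the neutrophil name out beyond the granule transcripts and an unnamed cluster led by Elane and Mpo, both described below. Kit had at least 1 UMI in 66 of 112 unchallenged, 161 of 329 challenged once and 100 of 212 rechallenged class II-positive cells.

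MHC class II molecules carry peptides from proteins taken up by a cell and show them to CD4+ T cells. Their chains are made with the invariant chain Cd74, which is cut away in the endosome so that H2-DM can load peptide, and the transactivator Ciita switches on most genes of the pathway. Conventional dendritic cells arise in the marrow from progenitors that need the receptor Flt3, and divide into cDC1, which depend on Irf8 and Batf3 and bear Xcr1 and Clec9a, and cDC2, which share genes with monocytes.

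The genes that chose the cells lie in the H2 complex on chromosome 17. On GRCm38 (GENCODE M21), H2-Aa, the alpha chain of I-A, spans 17:34282744-34287823 on the minus strand. H2-Ab1, its beta chain, spans 17:34257689-34269419, and H2-Eb1, the beta chain of I-E, spans 17:34305867-34316674, both on the plus strand. Promoters of class II genes are known for an X box and a Y box held at a fixed spacing, which is why the stretch around them is printed for the genes of the class II list where both were found. The search was for GCAAC, the core of the X box, followed after 10 to 30 bases by TGATTGG, the Y box. Both strands were searched in the windows that run from 250 bases before to 50 bases after each gene start (RefSeq, GRCm38.p6). These short motifs were written from general knowledge of class II promoters, and a match is a description, not a binding site. Of the 18 genes of the class II chains and the loading list, 13 were in the table, with 15 windows, and 5 held the pair. The pair was in 65 of all 32851 windows, 0.198%, whereas TGATTGG alone was in 7.82% and GCAAC alone in 35.2%. Each sequence is read 5′ to 3′ on the strand of the gene, with both motifs in capitals and 15 bases on either side.
H2-Aa, chr17:34287852-34287919, minus strand: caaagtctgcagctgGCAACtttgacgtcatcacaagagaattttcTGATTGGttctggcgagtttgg
H2-Eb1, chr17:34305761-34305827, plus strand: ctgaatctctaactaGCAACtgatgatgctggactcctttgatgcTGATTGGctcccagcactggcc
H2-Eb2, chr17:34325528-34325594, plus strand: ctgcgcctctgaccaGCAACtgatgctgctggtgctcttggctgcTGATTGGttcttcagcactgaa
H2-Ob, chr17:34238803-34238867, plus strand: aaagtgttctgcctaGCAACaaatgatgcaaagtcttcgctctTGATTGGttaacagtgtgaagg
H2-Oa, chr17:34092288-34092355, plus strand: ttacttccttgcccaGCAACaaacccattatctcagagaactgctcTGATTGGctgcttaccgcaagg
The spacing between the motifs was 23 to 26 bases in all 5, and GCAAC began 81 bases before the start of H2-Aa, 91 before that of H2-Eb1 and 76 before that of H2-Oa. H2-DMb1 and H2-DMb2, which encode the beta chains of the peptide editor H2-DM, held TGATTGG without GCAAC in this window. H2-Ab1, Cd74, Ciita, Ctsb and March1 had no entry.

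The libraries held 9684 unchallenged, 9060 challenged once and 8923 rechallenged barcodes, of which 9223, 8650 and 8542 cells were kept, with median depths of 11196, 13477 and 10500 UMIs. Median mitochondrial shares of the kept cells were 2.06%, 2.58% and 4.09%. Class II-positive cells had median depths of 12625, 13499 and 7973 UMIs and medians of 3063.5, 3228 and 2094.5 genes in the same order. Rechallenged class II-positive cells were thus the shallowest, and the part of depth in the gene levels was not tested. Each pair of libraries shared 103 to 125 barcodes, and 11 class II-positive cells had a barcode that was also in another library. Scrublet called 3.0 to 4.63% of kept cells doublets. Among class II-positive cells it called 19, or 2.91%, and these were kept. Relative to total UMIs, the median of the gene ratios over all class II-positive cells was shifted by 0.04 on the log2 scale for challenged once over unchallenged. The shift was -0.18 for rechallenged over unchallenged and -0.23 for rechallenged over challenged once, and list medians are therefore given beside the median of all genes.

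Class II-positive cells numbered 112 in the unchallenged library, 1.21% of kept cells (exact 95% interval 1.0 to 1.46). They numbered 329 in the challenged once library, 3.80% (3.41 to 4.23), and 212 in the rechallenged library, 2.48% (2.16 to 2.83). These and all later intervals cover counting error only. Granule-rich neutrophil precursors took different parts of the 3 libraries. Over kept cells below the granule limit, class II-positive cells were 2.36% of unchallenged, 4.50% of challenged once and 3.17% of rechallenged cells. The order with challenged once highest did not hold at a higher class II level. Cells with at least 10 class II UMIs, called class II-high here, were 56 unchallenged (0.607%, 0.459 to 0.788), 100 challenged once (1.16%, 0.942 to 1.40) and 137 rechallenged cells (1.6%, 1.35 to 1.89). This cut is a range on a continuous score and not a cell type, and 27 cells had 8 to 12 class II UMIs. Class II-high cells had median depths of 10634, 11245 and 7352 UMIs in the unchallenged, the challenged once and the rechallenged library. The share also depended on depth. After each cell was thinned to 2000 UMIs, class II-positive cells were 0.624% of unchallenged, 1.37% of challenged once and 1.85% of rechallenged cells. Thinning left out 411 unchallenged, 678 challenged once and 762 rechallenged kept cells with fewer UMIs.

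Class II UMIs per cell ran from the limit of the rule to a maximum of at least 382 in each library. Unchallenged cells had a median of 9 UMIs with quartiles of 3 and 105 and a maximum of 837. Challenged once cells had a median of 4, quartiles of 3 and 33 and a maximum of 581. Rechallenged cells had a median of 26, quartiles of 4 and 64.5 and a maximum of 382. At the limit of the rule, 36 unchallenged, 122 challenged once and 48 rechallenged cells had exactly 3 class II UMIs, and 134, 330 and 174 cells that passed the other limits had 2. Cd74, which the rule did not use, stood at 49.6, 109 and 83.5 CPM in the cells with 3 class II UMIs, and at 9.35, 39.3 and 31.2 CPM in the cells with 2, in the unchallenged, the challenged once and the rechallenged library. The dendritic cell gene Batf3 was at 0 UMIs in cells with exactly 3 class II UMIs in both the unchallenged and the challenged once library and at 9.58 CPM in those of the rechallenged library. Class II RNA was also present in cells outside the rule. Class II levels were 5760, 2366 and 4524 CPM in class II-positive cells, against 12.3, 22.7 and 18.4 CPM in granule-rich cells of the unchallenged, the challenged once and the rechallenged library. Granule-rich cells, which should lack class II, had at least 1 class II UMI in 10.0%, 7.03% and 7.09% and at least 3 in 0.290%, 0.673% and 0.325%, at median depths of 10711, 9467 and 9508 UMIs. How many of the cells with exactly 3 class II UMIs owed them to free RNA was not tested.

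**Figure D1:**
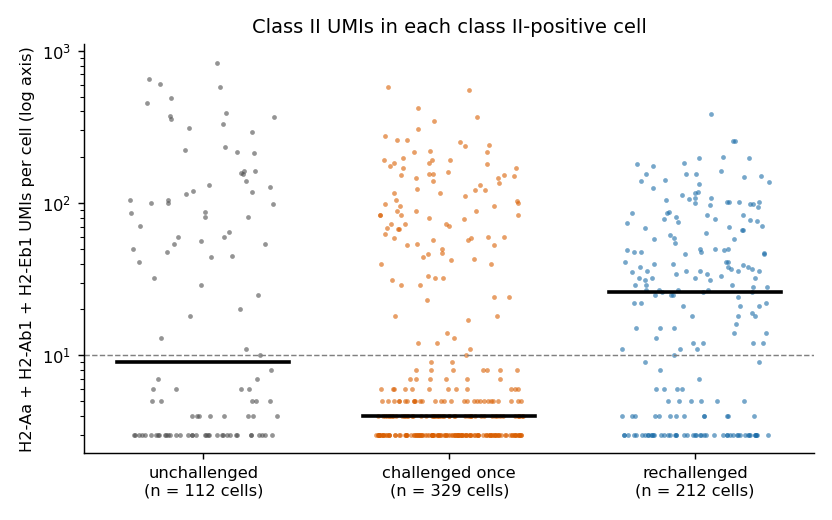
Class II UMIs (H2-Aa, H2-Ab1 and H2-Eb1 summed) in each class II-positive cell, 1 point per cell on a log axis, by library; the black line is the median and the dashed line marks 10 UMIs. Medians were 9 in unchallenged, 4 in challenged once and 26 in rechallenged cells, and in each library many cells sat at the limit of 3.

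Set against other kept cells, class II-positive cells stood out in class II genes by choice and in a set of dendritic cell genes beside them. Cd74 stood at 3175 CPM in class II-positive cells, against 32.7 CPM in other kept cells. Beyond the chains and Cd74, the 15 genes with the largest ratio included Naaa, an acid amidase, Ckb, a creatine kinase, Batf3, Cst3 (cystatin C, a cathepsin inhibitor), H2-DMb1, Ciita, Itgb7, an integrin chain, and Id2, a regulator that dendritic cells need. Batf3 stood at 66.5 CPM, against 0.476 CPM in other kept cells, and Ciita at 51.3 CPM, against 0.449 CPM. Irf8 stood at 420 CPM, against 85.9 CPM, and Flt3 at 67.2 CPM, against 18.6 CPM. All are descriptions, since the cells were chosen on genes of the same program.

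Clustering divided the 653 cells into 11 clusters, named only where at least 3 and no fewer than 50% of the markers of a class were at least 2-fold over the other class II-positive cells. That naming rule was set after the clusters had been seen. Cluster 0, with 101 cells and a median of 101 class II UMIs, was cDC1-like, with 8 of 10 cDC1 markers and 7 of 10 shared dendritic cell markers raised and Irf8, Plbd1, Id2 and Batf3 among its top 10 genes. Cluster 9, with 32 cells and a median of 216.5 class II UMIs, was also cDC1-like, with 9 of 10 cDC1 markers raised. Cxcl9, Dnase1l3, Cadm1, Xcr1 and Cd83 led it. Summed over libraries, Xcr1, the receptor for Xcl1, stood at 347 CPM in cluster 9 and 56.6 CPM in cluster 0. Clec9a, a receptor for dead cell actin, stood at 182 CPM in cluster 9 and 68.1 CPM in cluster 0. Top2a, a topoisomerase of dividing cells that was picked after its values were seen, was ordered the other way, at 14.3 CPM in cluster 9 and 416 CPM in cluster 0. Cluster 9 thus had the higher levels of surface cDC1 genes and the lower level of this division gene.

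Cluster 7, with 46 cells and a median of 100.5 class II UMIs, was DC-like without a subset, since markers of mature dendritic cells (9 of 10), cDC2 (7 of 10), shared dendritic cells (6 of 10) and monocytes (5 of 10) were all raised. Its top genes included the chemokine Ccl5, S100a4, a calcium-binding protein, and Cd209a, a lectin of cDC2. Cd209a was in 13 of its cells and Ccr7, the receptor that guides mature dendritic cells to lymph nodes, in 5, and no cell had both. Irf8 stood at 87.4 CPM in cluster 7, against 1859 CPM in cluster 0. Cluster 10, with 26 cells and a median of 22 class II UMIs, was T, NK or innate lymphoid-like, led by Trbc1, Cd7 and Tcf7, with 8 of 10 of those markers raised and Cd3e at 0 UMIs. In cluster 10, 6 of 10 plasmacytoid markers were raised too, with none among its top 10 genes.

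Cluster 2, with 87 cells and a median of 32 class II UMIs, stayed unnamed, and 84 of its cells came from the rechallenged library. A cluster made mostly of 1 library may reflect that library and not a type. Its top genes included S100a6, Klf4, a transcription factor of monocytes and some cDC2, L1cam, the monocyte chemokine receptor Ccr2 and Itgb7. Retnlg, a resistin-like gene of neutrophils, led it. In rechallenged cells, Irf8 stood at 1075 CPM in cluster 2 and 1093 CPM in cluster 0, and Batf3 at 214 CPM in cluster 2 (180 to 254) and 316 CPM in cluster 0 (242 to 406). Clec9a had a UMI in 24 cells of cluster 2 and Xcr1 in 1. At the coarser resolution of 0.4, a cluster of 203 cells with 109 rechallenged cells was cDC1-like, and 284 cells in all were DC-like in place of 179.

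The other 6 clusters had medians of 3 or 4 class II UMIs. Clusters 1 and 4, with 97 and 57 cells, were stem and progenitor-like, with Cd34 or Hlf among their top genes. Cluster 3, with 70 cells, had the lymphoid genes Dntt, Ly6d and Il7r on top and stayed unnamed. Cluster 5, with 53 cells, was erythroid-like, and cluster 8, with 34 cells, basophil or mast-like. Cluster 6, with 50 cells, was led by the granule proteases Elane and Mpo and stayed unnamed. Clusters 5 and 6 were the deepest, with median depths of 33627 and 29551 UMIs, and held 13 of the 19 doublet calls, while cluster 0 had a median depth of 11551 UMIs and none. Batf3 was at 0 UMIs in clusters 1, 4 and 8. In cluster 1, Cd74 stood at 218 CPM and H2-Aa at 94.8 CPM. In cluster 4, Cd74 stood at 739 CPM and H2-Aa at 295 CPM. Both clusters were thus above the 41.9, 45.5 and 25 CPM of Cd74 in other kept cells below the granule limit of the unchallenged, the challenged once and the rechallenged library.

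**Figure D2:**
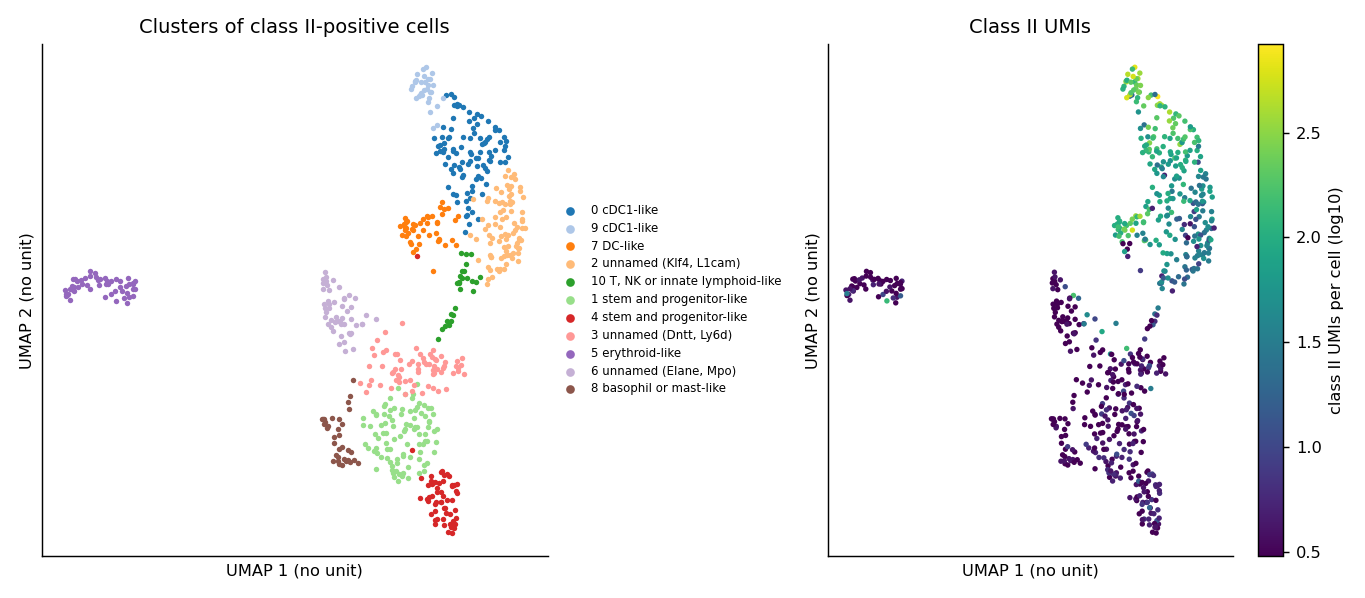
Class II-positive cells on 2 UMAP axes (no unit), coloured by cluster on the left and by class II UMIs per cell (log10) on the right. Clusters 0, 9, 7, 2 and 10 carry the high class II counts, with medians of 101, 216.5, 100.5, 32 and 22 UMIs, and the other 6 clusters have medians of 3 or 4.

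**Figure D3:**
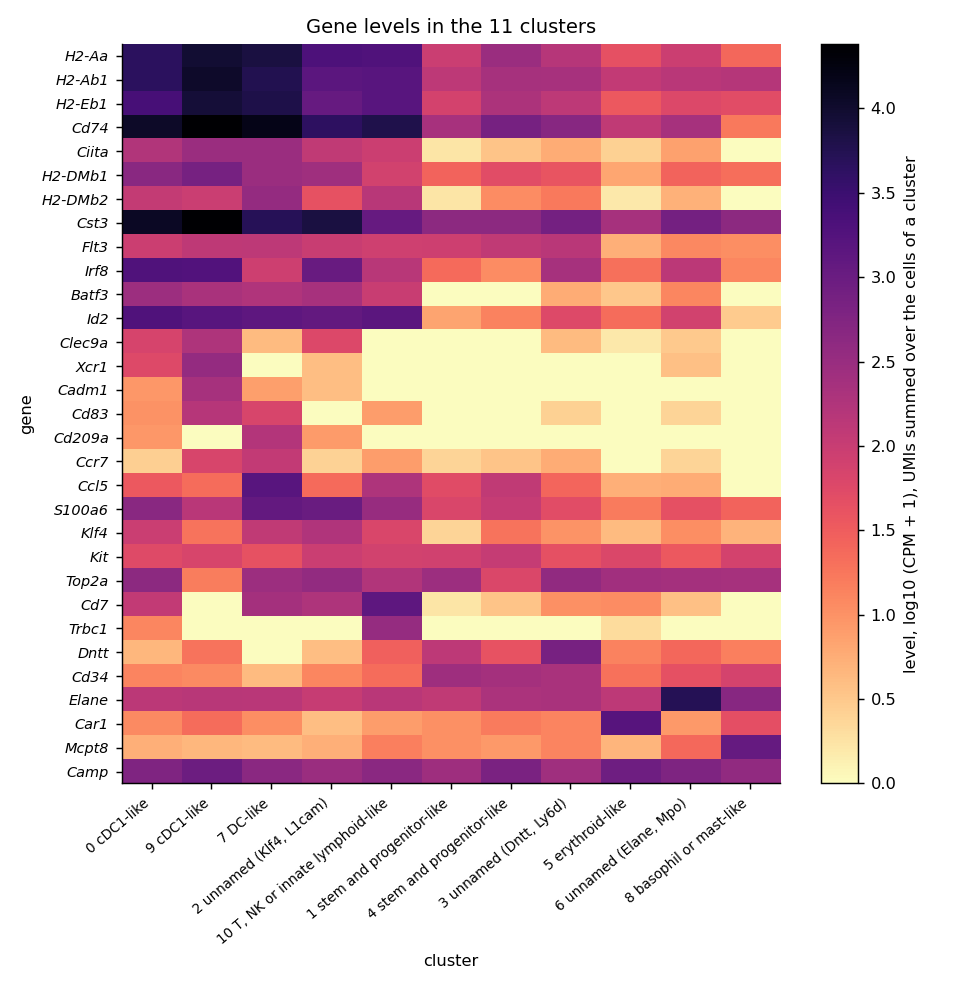
Levels of 31 genes (rows) in the 11 clusters (columns), as log10 of CPM plus 1, from UMIs summed over the cells of a cluster. Irf8 is dark in clusters 0, 9 and 2, Batf3 in these and cluster 7, Xcr1 in cluster 9, Ccl5 and Cd209a in cluster 7, and Dntt, Elane, Car1 and Mcpt8 each in 1 of the clusters with few class II UMIs.

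The kinds of cell were spread differently over the libraries. DC-like cells of clusters 0, 7 and 9 numbered 50 in the unchallenged library, 0.542% of kept cells (0.403 to 0.714). They numbered 78 in the challenged once library, 0.902% (0.713 to 1.12), and 51 in the rechallenged library, 0.597% (0.445 to 0.784). The 6 clusters with few class II UMIs held 60 unchallenged (0.651%), 232 challenged once (2.68%) and 69 rechallenged cells (0.808%), so they made up most of the excess of class II-positive cells in the challenged once library. The stem and progenitor-like cluster 1 held 8, 72 and 17 cells and the lymphoid gene cluster 3 held 5, 51 and 14 in the unchallenged, the challenged once and the rechallenged library. Clusters 2 and 10 together held 2 unchallenged, 19 challenged once and 92 rechallenged cells, and among class II-high cells cluster 2 held 0, 3 and 76 and cluster 10 held 2, 11 and 5. Within the DC-like cells, cluster 9 held 17, 10 and 5 cells and cluster 7 held 5, 16 and 25 cells in the unchallenged, the challenged once and the rechallenged library. The intervals of these shares cover counting error only, and whether they exceed the spread between animals was not tested.

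**Figure D4:**
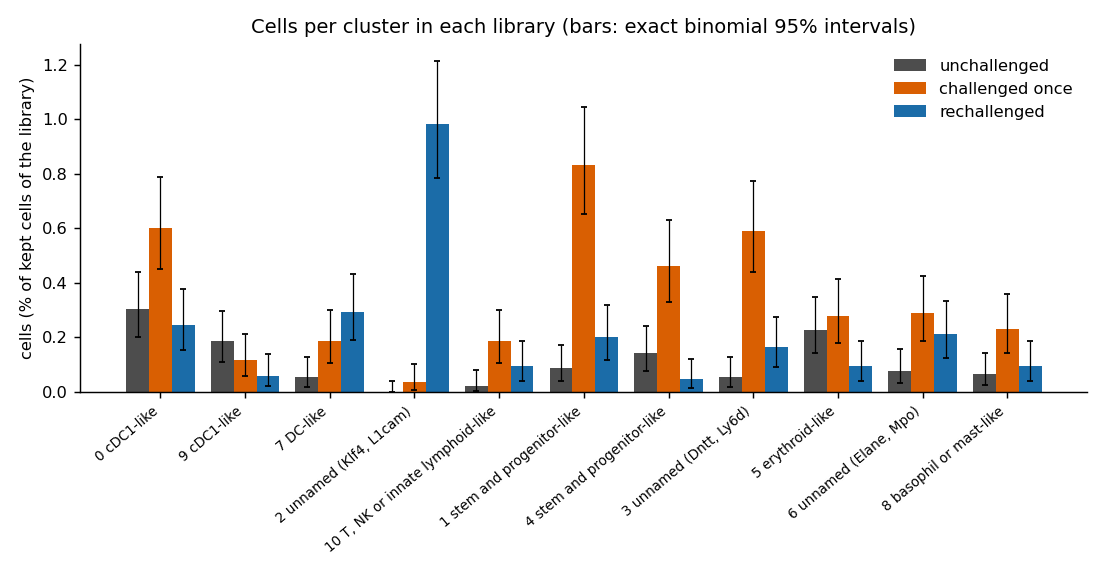
Cells of each cluster as a percent of the kept cells of each library, with unchallenged, challenged once and rechallenged bars from left to right and exact binomial 95% intervals. Cluster 2 stands almost wholly in the rechallenged library, with 0, 3 and 84 cells, and clusters 1, 3 and 4 are highest in the challenged once library.

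Class II gene levels over all class II-positive cells were lowest in the challenged once library. H2-Aa stood at 2060 CPM in unchallenged cells (95% interval 1994 to 2128), 850 CPM in challenged once cells (825 to 874) and 1810 CPM in rechallenged cells (1753 to 1868). Cd74 stood at 5304 CPM in unchallenged, 2345 CPM in challenged once and 3552 CPM in rechallenged cells. The clusters with few class II UMIs were also largest there. Within class II-high cells, H2-Aa stood at 5436 CPM in unchallenged, 3710 CPM in challenged once and 3512 CPM in rechallenged cells, and Cd74 at 14051, 10187 and 6904 CPM. There the rechallenged library was lowest, so the log2 ratio of rechallenged over challenged once was 1.08 for H2-Aa in all class II-positive cells and -0.08 in class II-high cells, and for Cd74 it was 0.60 and -0.56. Class II-high cells of the rechallenged library were mostly of another cluster than those of the unchallenged and the challenged once library. Of 56 unchallenged class II-high cells, 44 were in clusters 0 and 9, and of 100 challenged once cells, 62 were. Of 137 rechallenged class II-high cells, 76 were in cluster 2 and 26 in clusters 0 and 9.

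The cDC1-like cluster 0 held cells of all 3 libraries, 28 unchallenged, 52 challenged once and 21 rechallenged, and allows a comparison within 1 cluster. At the finer resolution of 1.5 its cells fell mainly into 2 cDC1-like clusters of other make-up: 1 with a median of 124 class II UMIs took 13 unchallenged, 20 challenged once and 19 rechallenged cells, and 1 with a median of 73 took 15, 30 and 2. In cluster 0, H2-Aa stood at 5625 CPM in unchallenged cells (5367 to 5892), 3701 CPM in challenged once cells (3551 to 3856) and 4801 CPM in rechallenged cells (4497 to 5120). Cd74 stood at 14222 CPM in unchallenged, 10276 CPM in challenged once and 9141 CPM in rechallenged cells. Both challenged libraries were below the unchallenged one for both genes, a description, since the rule used H2-Aa. On the log2 scale with 10 CPM added, H2-Aa was at -0.60 for challenged once over unchallenged and -0.23 for rechallenged over unchallenged, and Cd74 at -0.47 and -0.64. A gene counts as higher or lower below if this ratio passed 1.5-fold and the gene had at least 50 UMIs over the pair. By that measure 122 of 2305 genes in cluster 0 were higher (5.29%) and 96 lower (4.16%) for challenged once over unchallenged. For rechallenged over unchallenged, 65 of 1216 were higher (5.35%) and 282 lower (23.2%), and for rechallenged over challenged once 89 of 1971 were higher (4.52%) and 585 lower (29.7%). The medians of all these genes were 0.04, -0.23 and -0.29, so rechallenged levels in cluster 0 lay lower for genes in general. The rechallenged over unchallenged ratio of H2-Aa, -0.23, was thus at the median of all genes, and that of Cd74, -0.64, was below it. Within the finer cluster that held most rechallenged cells, an alternative added after seeing the data, H2-Aa was at -0.83 for challenged once over unchallenged and -0.76 for rechallenged over unchallenged, and Cd74 at -0.60 and -1.16. In the other finer cluster H2-Aa was at -0.17 and Cd74 at -0.17 for challenged once over unchallenged, within 1.5-fold, and its 2 rechallenged cells were too few to compare.

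Ciita, the class II transactivator, differed little in cluster 0. It stood at 173 CPM in unchallenged, 171 CPM in challenged once and 155 CPM in rechallenged cells, and its intervals overlapped (130 to 225, 140 to 207 and 105 to 222). Of the class II loading and processing list, 1 of 9 measured genes was higher and 1 lower for challenged once over unchallenged in cluster 0, with a median of -0.01. Of all genes there, 5.29% were higher and 4.16% lower. The higher gene was H2-DMb2, one of the alternative beta chains of H2-DM, at 171 CPM in challenged once cells (106 UMIs in 34 of 52 cells), against 28.3 CPM in unchallenged cells (9 UMIs in 6 of 28 cells). The rechallenged cells had 51.8 CPM (10 UMIs in 4 of 21 cells). The lower gene was H2-DMb1, the other beta chain, at 399 CPM in challenged once cells, against 654 CPM in unchallenged cells. Rechallenged cells had 352 CPM. In the finer clusters H2-DMb1 was at -0.98 and, in the one with few rechallenged cells, at -0.34 for challenged once over unchallenged. The beta chains thus moved in opposite directions after 1 challenge, and since they are near copies of each other, reads shared between them could not be assigned with certainty. For rechallenged over unchallenged 3 of 8 measured genes of the list were lower and 0 higher, where 23.2% of all genes were lower and 5.35% higher. Over class II-high cells, H2-DMb2 stood at 62.0, 163 and 85.5 CPM and H2-DMb1 at 516, 334 and 269 CPM in the unchallenged, the challenged once and the rechallenged library. H2-Oa, a chain of the H2-DM inhibitor H2-O, stood at 99.8, 108 and 105 CPM there. Ctss, the protease that trims the invariant chain, stood at 312, 313 and 283 CPM.

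Of the transcription factors that set dendritic cell fate, Irf8 was lower in rechallenged cells of cluster 0 and Batf3 was not. Irf8 stood at 2099 CPM in unchallenged cells (1943 to 2264), 1974 CPM in challenged once cells (1865 to 2088) and 1093 CPM in rechallenged cells (950 to 1251). The log2 ratio was -0.94 for rechallenged over unchallenged and -0.85 for rechallenged over challenged once, set against medians of all genes of -0.23 and -0.29. Within the finer cluster with 13, 20 and 19 cells, Irf8 was at -0.89 and -0.84. Batf3 stood at 229 CPM in unchallenged, 307 CPM in challenged once and 316 CPM in rechallenged cells, within 1.5-fold. Cluster 9 gave Irf8 levels of 1719, 2302 and 1031 CPM from 17 unchallenged, 10 challenged once and 5 rechallenged cells, again lowest after 2 challenges. Id2 stood at 1706, 2106 and 1372 CPM in cluster 0. Zbtb46, a factor of conventional dendritic cells, rested on 5, 15 and 4 UMIs in cluster 0, too few for a comparison.

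Xcr1 and Clec9a, surface genes of cDC1, were lower in both challenged libraries over class II-high cells. Of the cDC1 list there, 4 of 9 measured genes were lower and 0 higher for challenged once over unchallenged (3.01% of all genes lower), with a median of -0.13 beside 0.08, and 3 of 6 were lower for rechallenged over unchallenged (16.2%), with a median of -0.63 beside -0.14. Xcr1 stood at 127 CPM in unchallenged cells (101 to 157), 53.6 CPM in challenged once cells (41.3 to 68.4) and 17.9 CPM in rechallenged cells (10.8 to 27.9). It had UMIs in 21 of 56, 19 of 100 and 8 of 137 cells. Clec9a stood at 96.8, 46.9 and 52.6 CPM there. The make-up of class II-high cells differed, and cluster 2 held 0 of the 56 unchallenged and 76 of the 137 rechallenged ones. Xcr1 had a UMI in 1 of all 87 cells of cluster 2. Cluster 9, where Xcr1 and Clec9a were highest, held fewer cells after challenge. Within cluster 9 Xcr1 stood at 391 CPM in unchallenged, 329 CPM in challenged once and 212 CPM in rechallenged cells, with overlapping intervals (296 to 508, 228 to 460 and 85.4 to 437). Summed, the 10 cDC1 markers stood at 993, 956 and 1046 CPM in cluster 0 and at 1761, 1964 and 1547 CPM in cluster 9. In cluster 0 Clec9a stood at 104 CPM in unchallenged, 48.4 CPM in challenged once and 72.5 CPM in rechallenged cells, and was lower past 1.5-fold only for challenged once over unchallenged (log2 ratio -0.96). Flt3 stood at 113, 75.9 and 88.0 CPM and Kit at 62.8, 38.7 and 82.9 CPM in unchallenged, challenged once and rechallenged cells of cluster 0, from 47 UMIs or fewer each. Flt3 stayed within 1.5-fold where it had 50 UMIs, and Kit for rechallenged over challenged once (16 and 24 UMIs, log2 ratio 0.93) fell short of that minimum.

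Among class I presentation genes, which show peptides from the cytosol to CD8+ T cells, 6 of 11 measured in cluster 0 were lower and 0 higher for rechallenged over unchallenged (23.2% of all genes lower), with a median of -0.61 beside -0.23 for all genes. Of 12 genes, 6 were lower for rechallenged over challenged once (29.7% of all genes lower), and 0 passed in either direction for challenged once over unchallenged. H2-D1, a classical class I heavy chain, stood at 694 CPM in rechallenged cells (581 to 822), against 1414 CPM in unchallenged cells (1286 to 1551). Challenged once cells had 1356 CPM. H2-T23, which encodes the non-classical molecule Qa-1, stood at 67.3 CPM in rechallenged cells, against 321 CPM in unchallenged cells. Challenged once cells had 310 CPM. For the rechallenged cells of cluster 0, 1 UMI was worth 5.18 CPM. In the DC-like clusters together, 4 of 13 measured class I genes were lower and 2 higher for rechallenged over unchallenged (18.9% and 7.14% of all genes). Their median was -0.12 beside -0.17 for all genes. Class I genes are a large family of near copies, so reads shared between them are uncertain. The immunoproteasome subunit Psmb9, picked after its values were seen, stood at 540, 547 and 243 CPM in cluster 0, and the peptide transporter gene Tap1, picked likewise, at 163, 160 and 176 CPM. Other kept cells below the granule limit also had less H2-T23, at 26.5 CPM in the rechallenged library, against 99.6 CPM in the unchallenged library. Tap1 stood at 53.4, 57.9 and 52.5 CPM in such unchallenged, challenged once and rechallenged cells.

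A part of the interferon response genes was higher after 1 challenge, and a part was lower after 2 over all class II-positive cells and in cluster 0, while none was lower after 2 over unchallenged in the 3 DC-like clusters combined. Over all class II-positive cells, 204 of 8203 genes were higher (2.49%) and 233 lower (2.84%) for challenged once over unchallenged. Of 31 measured interferon genes, 11 were higher and 0 lower, with a median of 0.27 beside 0.03 for all genes. For rechallenged over unchallenged, 389 of 6345 genes were higher (6.13%) and 1016 lower (16%), and of 23 measured interferon genes 2 were higher and 10 lower, with a median of -0.51 beside -0.14. For rechallenged over challenged once, 411 of 8307 genes were higher (4.95%) and 1181 lower (14.2%), and of 30 measured interferon genes 0 were higher and 19 lower, with a median of -0.81 beside -0.16. Scaled by the median of gene ratios, the split of all genes turned to 647 higher and 600 lower for rechallenged over unchallenged, and to 752 higher and 544 lower for rechallenged over challenged once.

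Ifitm1, which encodes a membrane protein that limits virus entry, had the largest ratio of challenged once over unchallenged. It stood at 175 CPM in unchallenged cells (54 of 112 with a UMI), 1002 CPM in challenged once cells (245 of 329) and 403 CPM in rechallenged cells (109 of 212). In the stem and progenitor-like cluster 1 Ifitm1 stood at 631, 1940 and 1099 CPM in unchallenged, challenged once and rechallenged cells, and this cluster held 72 of the challenged once cells. In cluster 0 Ifitm1 stood at 113 CPM in challenged once cells from 70 UMIs, against 6.28 CPM in unchallenged cells from 2 UMIs. Irf7, the factor that amplifies type I interferon, stood at 55.5 CPM in unchallenged, 93.7 CPM in challenged once and 27.5 CPM in rechallenged class II-positive cells. In cluster 0 Irf7 stood at 59.7, 103 and 20.7 CPM from 19, 64 and 4 UMIs. Rtp4, an interferon-induced chaperone of receptors, stood at 32.3 CPM in unchallenged, 80.2 CPM in challenged once and 15.2 CPM in rechallenged class II-positive cells. Isg15, a ubiquitin-like modifier, did not share the order and stood at 70.2, 50.3 and 17.5 CPM. In cluster 0, 3 of 12 measured interferon genes were higher and 0 lower for challenged once over unchallenged (5.29% and 4.16% of all genes). For rechallenged over unchallenged, 0 of 8 were higher and 4 lower (5.35% and 23.2% of all genes). For rechallenged over challenged once, 9 of 12 were lower (29.7% of all genes). In DC-like clusters 0, 7 and 9 together, 188 of 3126 genes were higher (6.01%) and 106 lower (3.39%) for challenged once over unchallenged, and 5 of 15 measured interferon genes were higher and 0 lower. Of 1933 genes, 138 were higher (7.14%) and 365 lower (18.9%) for rechallenged over unchallenged, and 2 of 13 interferon genes were higher and 0 lower, with a median of 0.03 beside -0.17 for all genes. Of 2802 genes, 167 were higher (5.96%) and 761 lower (27.2%) for rechallenged over challenged once, and 1 of 14 interferon genes was higher and 5 lower, with a median of -0.25 beside -0.26. Cluster 7 made up 25 of the 51 rechallenged DC-like cells and 5 of the 50 unchallenged ones. Irf7 in other kept cells below the granule limit stood at 28.7, 45.3 and 4.35 CPM in the unchallenged, the challenged once and the rechallenged library, the same order as in class II-positive cells.

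**Figure D5:**
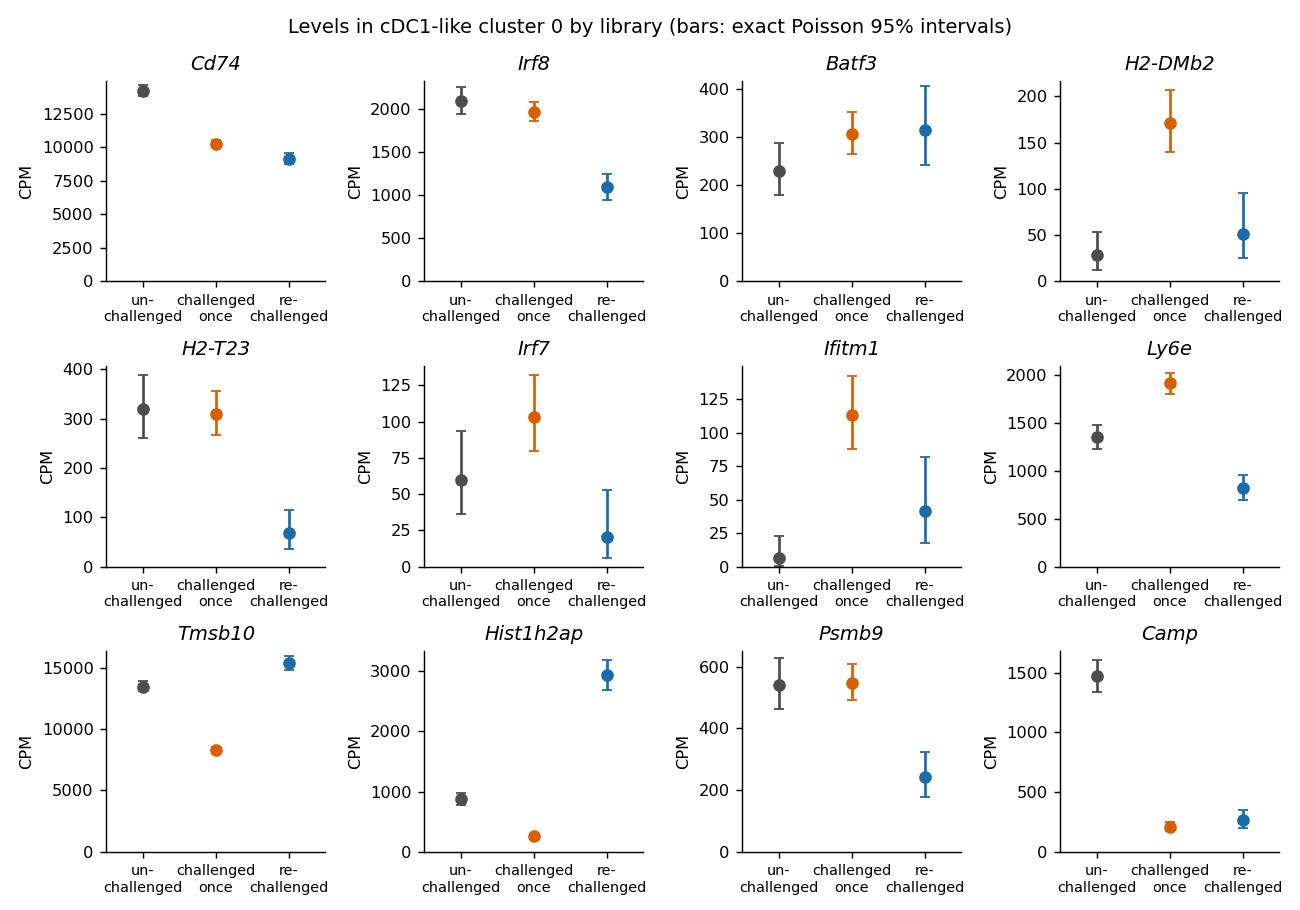
Levels of 12 genes (CPM) in cDC1-like cluster 0 by library, with exact Poisson 95% intervals and 1 point per library from 28 unchallenged, 52 challenged once and 21 rechallenged cells. Irf8, H2-T23 and Psmb9 are lowest in rechallenged cells, H2-DMb2, Ifitm1 and Irf7 are highest in challenged once cells, Hist1h2ap is highest in rechallenged cells and Camp is highest in unchallenged cells.

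Of the chemokines, Ccl5 was higher after each challenge in class II-high cells. Over class II-high cells, 233 of 4018 genes were higher (5.8%) and 121 lower (3.01%) for challenged once over unchallenged, 263 of 3559 higher (7.39%) and 577 lower (16.2%) for rechallenged over unchallenged, and 224 of 4447 higher (5.04%) and 914 lower (20.6%) for rechallenged over challenged once. Ccl5, a chemokine that draws T cells and other leukocytes, stood at 45.4 CPM in unchallenged (5 of 56 cells with a UMI), 169 CPM in challenged once (20 of 100) and 349 CPM in rechallenged class II-high cells (29 of 137). Within cluster 7 it stood at 493, 740 and 2601 CPM, from 15 UMIs in 2 of 5 unchallenged, 106 UMIs in 5 of 16 challenged once and 352 UMIs in 15 of 25 rechallenged cells. In cluster 0 Ccl5 had 0, 38 and 1 UMIs, and class II-high cells had 30, 202 and 371 UMIs in all. Other kept cells below the granule limit had 22.7, 37.8 and 142 CPM of Ccl5. Cxcl9, a ligand of Cxcr3, was carried by few cells, with UMIs in 7 unchallenged, 6 challenged once and 2 rechallenged class II-positive cells, and stood at 43.6, 12.4 and 14.2 CPM. Ccl22, a ligand of Ccr4 picked after its values were seen, had 22 UMIs in 3 unchallenged, 4 UMIs in 2 challenged once and 3 UMIs in 1 rechallenged class II-positive cell. Of the chemokine list in class II-high cells, 3 of 6 measured genes were higher and 2 lower for rechallenged over unchallenged, with a median of 0.68 beside -0.14 for all genes. For challenged once over unchallenged, 1 of 5 was higher and 3 lower.

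The inhibitor of NF-kB Nfkbia stood at 223 CPM in unchallenged cells of cluster 0 (174 to 281), 103 CPM in challenged once cells (79.6 to 132) and 46.6 CPM in rechallenged cells (21.3 to 88.5). The intervals did not overlap between unchallenged and either challenged library, but they cover counting error within single libraries only. In rechallenged cells of cluster 0, 1 UMI was worth 5.18 CPM. Within the finer cluster with 13, 20 and 19 cells, Nfkbia had 30, 21 and 9 UMIs. Over all class II-positive cells Nfkbia stood at 135, 102 and 91.0 CPM, within 1.5-fold. Nfkbid, an atypical nuclear inhibitor, was higher in rechallenged class II-positive cells, at 4.53 CPM in unchallenged, 8.56 CPM in challenged once and 26.6 CPM in rechallenged cells. Klf4 stood at 86.2, 58.6 and 139 CPM over class II-high unchallenged, challenged once and rechallenged cells, but at 141, 83.9 and 57.0 CPM within cluster 0. The higher Klf4 level of rechallenged class II-high cells thus lay outside cluster 0, and 120 of the 148 UMIs were in cluster 2. S100a6, a calcium-binding protein, stood at 259, 424 and 777 CPM over class II-high cells and at 336, 468 and 585 CPM in cluster 0.

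Some chaperone genes were lower in rechallenged class II-high cells. Cluster 2 held 0 of the 56 unchallenged, 3 of the 100 challenged once and 76 of the 137 rechallenged class II-high cells. The part of this make-up in the chaperone levels was not tested. In class II-high cells, 4 of 8 measured heat shock genes were lower and 0 higher for rechallenged over unchallenged (16.2% of all genes lower). Their median was -0.65 beside -0.14 for all genes. For rechallenged over challenged once, 7 of 9 were lower (20.6% of all genes), with a median of -0.98 beside -0.22. Dnaja1, an Hsp40 co-chaperone, stood at 328 CPM in unchallenged, 389 CPM in challenged once and 132 CPM in rechallenged class II-high cells. Of 13 measured folding genes of the endoplasmic reticulum, 3 were higher and 0 lower for challenged once over unchallenged (5.8% of all genes higher), with a median of 0.52 beside 0.08. Of the 13, 5 were lower for rechallenged over unchallenged (16.2% of all genes), with a median of -0.49 beside -0.14, and 8 for rechallenged over challenged once (20.6%), with a median of -0.76 beside -0.22. Over all class II-positive cells, 1 of 14 was higher and 0 lower for rechallenged over unchallenged (6.13% and 16% of all genes there), with a median of -0.09 beside -0.14. Pdia4, a disulphide isomerase, stood at 34.8, 80.4 and 36.6 CPM in unchallenged, challenged once and rechallenged class II-high cells. Dnaja1 in other kept cells below the granule limit stood at 332, 379 and 156 CPM, again lowest after 2 challenges.

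Genes of cell division differed by kind. In cluster 0, Top2a stood at 396 CPM in unchallenged, 404 CPM in challenged once and 492 CPM in rechallenged cells, within 1.5-fold, and 19 of 28, 34 of 52 and 13 of 21 cells had a UMI. Of 14 measured S phase genes of cluster 0, 9 were lower and 0 higher for rechallenged over challenged once (29.7% of all genes lower). Their median was -0.76 beside -0.29 for all genes. Tyms, which makes thymidylate, stood at 36.3 CPM in rechallenged cells of cluster 0, where 1 UMI was worth 5.18 CPM, against 105 CPM in challenged once cells. In the DC-like clusters together 13 of 15 S phase genes were lower in that comparison (27.2% of all genes), and in class II-high cells 4 of 19, close to the 20.6% of all genes there. Hist1h2ap, a histone H2A gene, went furthest in the opposite direction. It stood at 854 CPM in unchallenged, 255 CPM in challenged once and 2485 CPM in rechallenged class II-positive cells, at 870, 253 and 2931 CPM in cluster 0, and at 809, 187 and 1655 CPM in other kept cells below the granule limit.

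Specific granule transcripts of neutrophils were present in class II-positive cells and were highest in the unchallenged library. Camp, which encodes the antimicrobial cathelicidin, stood at 1748 CPM in unchallenged, 228 CPM in challenged once and 328 CPM in rechallenged class II-positive cells, with UMIs in all 112 unchallenged, 299 of 329 challenged once and 177 of 212 rechallenged cells. The summed level of the 10 neutrophil markers was 15957 CPM in unchallenged, 5781 CPM in challenged once and 7228 CPM in rechallenged class II-positive cells, and 11121, 2460 and 2377 CPM in cluster 0, with none of the 10 at 0. Other kept cells below the granule limit had 1714, 489 and 763 CPM of Camp. All 12 specific granule genes were lower and 0 higher for challenged once over unchallenged (2.84% of all genes lower), with a median of -2.16. For rechallenged over unchallenged, 9 of 12 were lower (16% of all genes). Camp and Ngp are on this list, and the rule for the cells set an upper limit on them. The part of free RNA in these values was not tested. Of the markers of other cells in cluster 0, the monocyte markers Csf1r, Fn1, Fcgr1 and Vcan and the cDC2 markers Mgl2 and Ccl17 were at 0 UMIs in all 3 libraries. The T cell markers Cd3e and Cd3g were also at 0, as they were over all class II-positive cells. The 10 cDC2 markers summed to 182, 87.2 and 62.1 CPM in unchallenged, challenged once and rechallenged cells of cluster 0, with 4, 3 and 2 detected and 1 raised. The 10 T, NK or innate lymphoid markers summed to 56.6, 82.3 and 10.4 CPM there, with 5, 5 and 2 detected and 0 raised. The 10 monocyte markers summed to 886 CPM in unchallenged, 755 CPM in challenged once and 647 CPM in rechallenged cells of cluster 0, where 5, 6 and 4 of them were detected, and 2 were raised over other class II-positive cells. The 12 B lineage markers summed to 371, 392 and 290 CPM in cluster 0, with 7, 8 and 4 detected and 2 raised. The 10 plasmacytoid markers summed to 365, 552 and 254 CPM in cluster 0, with 6, 9 and 5 detected and 0 raised.

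The genes with the largest differences over all class II-positive cells included several whose UMIs lay mainly in 1 cluster, and granule genes. For challenged once over unchallenged, the 8 highest were Ifitm1, Adgrl4, Dntt, Satb1, Rbpms, Saa3, Ifitm3 and Dmkn. Dntt, the polymerase that adds bases in lymphoid receptor genes, stood at 146 CPM in challenged once cells, against 44.1 CPM in unchallenged cells, and 625 of 803 UMIs in the challenged once library were in cluster 3. The 8 lowest were Ngp, Camp, Ltf, S100a9, Lcn2, Ifitm6, Chil3 and S100a8, of which Ngp, Camp, Ltf, S100a8, S100a9 and Lcn2 are on the neutrophil marker list. For rechallenged over unchallenged, the basophil proteases Mcpt8 and Prss34 led. Mcpt8 stood at 245 CPM in rechallenged cells from 516 UMIs in 17 of 212 cells, against 6.79 CPM in unchallenged cells from 12 UMIs in 11 of 112 cells. Prss34 stood at 203 CPM in rechallenged cells, against 6.22 CPM in unchallenged cells. Of the rechallenged UMIs, 492 of Mcpt8 and 418 of Prss34 were in 4 cells each of the basophil or mast-like cluster 8. Among the lowest were the erythroid genes Klf1, Car1 and Car2, and Car2, a carbonic anhydrase, stood at 188 CPM in rechallenged cells, against 1092 CPM in unchallenged cells, where 1811 of its 1930 UMIs were in the erythroid-like cluster 5. The 8 erythroid markers, all detected in each library, summed to 2438 CPM in unchallenged, 1148 CPM in challenged once and 1132 CPM in rechallenged class II-positive cells. The 8 basophil or mast markers summed to 101, 117 and 561 CPM, with Fcer1a, Ms4a2 and Cd200r3 at 0 UMIs in unchallenged cells. Among the lowest for rechallenged over challenged once were Rtp4, Fam69b, Ly6a, Gimap6 and Egfl7. Ly6a, the stem cell antigen Sca-1, stood at 62.1 CPM in rechallenged cells, against 226 CPM in challenged once cells.

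Further lists gave these counts over all class II-positive cells, where 2.49% of all genes were higher and 2.84% lower for challenged once over unchallenged, and 6.13% higher and 16% lower for rechallenged over unchallenged. Of the costimulation and checkpoint list, 4 of 6 measured genes were lower and 0 higher for challenged once over unchallenged, with a median of -0.70. Within class II-high cells 2 of 6 were lower in that comparison (3.01% of all genes there), with a median of -0.43. Of the fate transcription factors, 0 of 20 were higher and 2 lower for challenged once over unchallenged, and 4 of 17 were higher and 0 lower for rechallenged over unchallenged. Of the growth factor receptors, 0 of 12 passed 1.5-fold for challenged once over unchallenged and 1 of 11 was higher for rechallenged over unchallenged. That gene was Flt3, at 85.3 CPM in rechallenged cells, against 49.8 CPM in unchallenged cells, and in class II-high cells it stood at 103 CPM, against 86.2 CPM. Of the 20 genes for G2 and mitosis, 0 passed 1.5-fold for challenged once over unchallenged and 2 were higher for rechallenged over unchallenged, and of 22 respiratory chain genes 0 passed and 2 were lower. For rechallenged over unchallenged, 3 of 6 measured NF-kB feedback genes were higher and 0 lower, 3 of 8 chemokine receptor and migration genes were higher and 1 lower, and 3 of 15 immediate early genes were higher and 1 lower. Of pattern recognition receptors 1 of 7 was higher and 0 lower there, and of cytokines 0 of 2 were higher and 1 lower. Itgax, the integrin CD11c, stood at 31.8, 37.7 and 46.0 CPM in unchallenged, challenged once and rechallenged class II-high cells, within 1.5-fold. The monocyte marker Ly6c2 stood at 371, 259 and 245 CPM in unchallenged, challenged once and rechallenged class II-positive cells, against 1446, 976 and 1161 CPM in other kept cells below the granule limit. Siglech had 2, 4 and 3 UMIs in unchallenged, challenged once and rechallenged class II-positive cells, after the limit on this gene.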

How the data were processed

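The 3 deposited tables hold whole counts of UMIs per gene and cell barcode, not normalised. Cell Ranger 3.0.0 and the build mm10 are given per the submitters' processing notes, and the kit and the Kit enrichment are given per the labels. The counting annotation is not given in the sources used here. Values were checked to be whole, with a smallest barcode total of 500 UMIs, over 31053 genes. The tables held 119646078 UMIs in the unchallenged, 135079828 in the challenged once and 95522747 in the rechallenged library. Class II-positive cells held 1767333, 5487983 and 2109213 of them, so 1 UMI was worth 0.566, 0.182 and 0.474 CPM.

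Groups follow the sample titles. From the counts, levels were computed by adding up the UMIs of all cells of a population within 1 library, per 1000000 of their UMIs (CPM), with exact Poisson 95% intervals. Shares carry exact Clopper-Pearson 95% intervals. Log2 ratios had 10 CPM added, which understates the change of low genes, and genes with at least 50 UMIs over a pair of libraries counted as measured. With 1 library per group no p-value was computed. Doublets were called per library with Scrublet (scanpy 1.11.5, expected rate 6%) and kept. Class II-positive cells of the 3 libraries were clustered together on 2000 variable genes chosen within libraries, without immunoglobulin, sex-linked, ribosomal, mitochondrial, interferon, stress, granule and cell cycle genes. The clustering used 20 components, 15 neighbours and leidenalg 0.10.2 at resolution 0.8, with no correction between libraries. A cluster was left unnamed where another class had more genes than its own among the top 10. Other tools were numpy 2.4.6, scipy 1.17.1, pandas 2.3.3 and matplotlib 3.10.9. Sums and ratios were tested on simulated data with known folds.

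The rule for the cells and the 32 gene lists (412 genes, 2 of them not in the tables) were chosen with earlier results of these data known. The rule for named genes takes the 8 genes with the largest ratio in each direction of each pair of libraries, the 15 highest over other kept cells, up to 5 genes of each list and 17 genes of interest. Of these, 1 gene is not reported here. The top genes omit ribosomal, mitochondrial, immunoglobulin, T cell receptor, predicted and haemoglobin genes. Leading genes of clusters are named as such. Alternatives were other filters on cells, other class II limits, a strict B cell limit, thinning, no doublets, other resolutions, 1 CPM added, other UMI minimums and scaling by the median of gene ratios. Clusters 0, 7 and 9 alone, and cluster 0 divided by the clusters of resolution 1.5, were added as alternatives after seeing the data.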

Additional observations from a re-analysis of the deposited data

Results flagged for a closer look

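In 8 of the named genes, class II-positive cells of the challenged once and rechallenged libraries lay on opposite sides of the unchallenged library, both past 1.5-fold on the log2 scale with 10 CPM added. Both ratios share the unchallenged library, and the difference between them was not tested. Higher after 1 challenge and lower after 2 were Egfl7 (0.85 and -0.69), Fam69b (0.94 and -0.84), Irf7 (0.66 and -0.80), Ly6a (0.96 and -0.75) and Rtp4 (1.09 and -0.75). Lower after 1 challenge and higher after 2 were Hist1h2ap (-1.71 and 1.53), Klf4 (-0.76 and 0.83) and Tmsb10 (-0.76 and 1.0). Tmsb10, an actin-sequestering peptide, stood at 3626 CPM in unchallenged, 2141 CPM in challenged once and 7265 CPM in rechallenged class II-positive cells. Within cluster 0, the log2 ratios over unchallenged were -1.74 and 1.74 for Hist1h2ap, 0.70 and -1.18 for Irf7, and -0.69 and -1.18 for Klf4. The rechallenged Irf7 value in cluster 0 rests on 4 UMIs. In the DC-like clusters alone, the rechallenged ratio over unchallenged was 0.06 for Irf7, 0.76 for Ly6a, -0.06 for Klf4 and 0.25 for Tmsb10, so Irf7 and Ly6a were not lower there, and Rtp4, Egfl7 and Fam69b had too few UMIs.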

How the results depend on the processing

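No paired analysis was possible because each group had 1 library, and for the same reason no library could be left out. The share of class II-positive cells was 0.737% unchallenged, 1.80% challenged once and 1.77% rechallenged at 5 class II UMIs or more, 0.607%, 1.16% and 1.6% at 10 or more, 0.624%, 1.37% and 1.85% after thinning, 0.813%, 2.38% and 2.13% with no B cell UMI, and 0.542%, 0.902% and 0.597% for DC-like clusters alone, chosen after seeing the data. Filters at 1000 UMIs or 5% mitochondrial UMIs and leaving out doublet calls moved each share by less than its interval. Counts of higher and lower genes were 645 and 492 (challenged once over unchallenged), 625 higher (rechallenged over unchallenged), and 762 and 2089 (rechallenged over challenged once) with 1 CPM added. They were 108 and 113, 130 and 397, and 212 higher with 200 UMIs or more, and 647 and 600 and 752 and 544 for the rechallenged ratios scaled by the median of gene ratios. At 10 class II UMIs or more they were 121 lower, 577 lower and 224 higher, and in DC-like clusters alone 106 lower, 138 and 365, and 167 and 761. Resolution 0.4 gave 284 DC-like cells. Of 2425 values of single genes over all class II-positive cells, 2207 kept their size, 187 moved and 31 changed sign. At 10 class II UMIs or more, the ratio of rechallenged over unchallenged became 0.26 for Car1, and that over challenged once became -0.050 for Batf3, 1.01 for C1qtnf12, 1.93 for Car1, 0.47 for Car2, -0.56 for Cd74, -0.10 for Ciita, -0.27 for Cst3, -0.14 for Ctss, -0.079 for H2-Aa, -0.48 for H2-Ab1, -0.30 for H2-DMb1, -0.072 for H2-Eb1, -0.034 for H2-Oa, -0.61 for Id2 and -0.43 for Plbd1. With no B cell UMI, Cxcl9 became 0.26 for challenged once over unchallenged. In DC-like clusters alone, rechallenged over unchallenged became 0.059 for Irf7, 0.24 for Isg15, -0.059 for Klf4, 0.76 for Ly6a and -0.00010 for Wdfy4, and rechallenged over challenged once became -0.11 for Batf3, -0.069 for Cd74, -0.20 for Clec9a, -0.36 for Cst3, -0.35 for H2-DMb1, -0.92 for Id2, 0.10 for Ifitm3, 0.75 for Isg15 and -0.22 for Plbd1. Both settings leave out cells, and the cause of each change was not tested. In cluster 0 of the rechallenged library 1 UMI was worth 5.18 CPM, so a level of 0 there allows up to 15.5 CPM.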
